A study of Rattus norvegicus with 26 samples.

Results

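The genes described here code for 10 subunits of the voltage-gated calcium channels: the pore-forming subunits Cacna1a, Cacna1b, Cacna1c, Cacna1d and Cacna1e, the alpha2delta subunits Cacna2d1, Cacna2d2 and Cacna2d3, the gamma subunit Cacng2 and the beta subunit Cacnb4. They were taken by gene name from the joint count table, in which each matched 1 of 32883 Ensembl genes, and all 10 were among the 17990 genes that passed the filter on low counts. Their counts lay between 65 and 4068 reads in a library.

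Voltage-gated calcium channels open when the membrane is depolarized and let calcium into the cell, where it triggers transmitter release at the presynaptic terminal, shapes firing and starts calcium-dependent transcription. The pore-forming subunit sets the channel type (P/Q, N, L or R), while the beta and alpha2delta subunits bring the channel to the membrane and adjust its gating. In the spinal cord the N-type and P/Q-type channels carry most of the calcium for synaptic release, the alpha2delta products of Cacna2d1 and Cacna2d2 are binding sites of gabapentin, and Cacng2 codes for stargazin, better known for carrying AMPA-type glutamate receptors to the synapse.

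The study asked how intrathecal hUC-MSCs, human mesenchymal stem cells grown from the umbilical cord, change the transcriptome of the injured rat spinal cord. All rats were wild type adult female Sprague-Dawley rats of 250 g, and every group carries the same age label, postnatal day 70, although the sampling times differ by weeks. Intact rats are labelled untreated, and the study describes them as intact or sham (4 libraries), and the other rats received a clip compression of 60 g for 1 min at the tenth thoracic level. The sub-SCI group (3 libraries) was taken when transplantation was due. The +MSC rats got hUC-MSCs and the +PBS rats only vehicle, at 7 days after injury, and were taken 1, 2 or 4 weeks later, with 3, 3 and 4 +MSC libraries and 3, 2 and 4 +PBS libraries. The study's methods state that rats were given daily cyclosporin A, so the immune suppression is shared by +PBS and +MSC; they do not say whether uninjured rats received it. The tissue was a 5 mm cord segment centered at the lesion, a mixture of cell types, and all 15 neuron markers were counted in each group.

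Total counts per library lay between 19496602 and 43468509 (median 26158978). The summed level of the neuron markers was 12810 to 14940 CPM (counts scaled to a common library total) in Intact, 754 to 2967 in sub-SCI, 1627 to 7950 in the +PBS groups and 4923 to 11620 in the +MSC groups. Summed microglia and macrophage markers moved the other way, from 545 to 1039 CPM in Intact to 7722 to 9390 CPM in sub-SCI. Some libraries stood apart within their group. The third replicates of sub-SCI and +PBS-1w had the lowest neuron marker level of their groups, and replicate 1 of +PBS-4w had 7950 CPM of neuron markers against 2294 to 3176 CPM in the other 3 libraries of that group. Nothing in the labels says that the libraries of a group came from separate animals, although the study calls them biological replicates, so the p-values below measure the spread between these libraries. In these bulk samples, fewer cells of a type and less RNA per cell cannot be told apart.

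Upstream windows of 3 genes are shown for reference, those of the member with the largest fall after injury and the highest gain with hUC-MSCs (Cacng2), of the other member called at 4 weeks (Cacna2d2), and of the member that did not pass the test in any comparison of 2 groups (Cacna1c). Each holds the 250 bases before the transcript start in RefSeq's GRCr8 table, 5′ to 3′ on the gene's strand. Capitals mark matches, on either strand, to the GC box (GGGCGG), the TATA box (TATAAA) or the E-box (CANNTG); the cAMP response element TGACGTCA was also searched.
Cacng2, chr7:111577758-111578007, minus strand: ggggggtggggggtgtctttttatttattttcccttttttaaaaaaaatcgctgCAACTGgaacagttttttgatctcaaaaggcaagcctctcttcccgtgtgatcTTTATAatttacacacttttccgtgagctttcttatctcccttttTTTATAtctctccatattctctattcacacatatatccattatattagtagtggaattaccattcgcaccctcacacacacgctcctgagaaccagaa
Cacna2d2, chr8:116950856-116951105, plus strand: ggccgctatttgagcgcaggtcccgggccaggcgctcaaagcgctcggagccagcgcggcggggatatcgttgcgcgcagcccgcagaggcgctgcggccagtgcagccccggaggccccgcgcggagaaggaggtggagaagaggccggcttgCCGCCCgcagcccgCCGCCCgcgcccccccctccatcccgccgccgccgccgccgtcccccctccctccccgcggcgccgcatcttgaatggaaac
Cacna1c, chr4:154051749-154051998, minus strand: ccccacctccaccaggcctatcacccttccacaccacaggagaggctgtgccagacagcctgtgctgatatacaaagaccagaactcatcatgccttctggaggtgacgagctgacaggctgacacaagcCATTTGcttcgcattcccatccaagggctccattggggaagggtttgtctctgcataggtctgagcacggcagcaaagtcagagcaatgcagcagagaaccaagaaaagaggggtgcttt

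The Cacng2 window had a GC content of 38.4%, lower than in all but 10.5% of the 33469 windows of the same length in the table, and held 2 TATA box matches and 1 E-box match. The Cacna2d2 window had a GC content of 76.8% and 2 GC box matches, and the Cacna1c window had 54.4% and 1 E-box match. Over all windows, 30.5% held a GC box, 12.9% a TATA box, 65.5% an E-box and 1.59% the cAMP response element, and the median GC content was 51.2%. RefSeq windows were matched for 9 of the 10 genes (11 windows, since Cacna2d1 has 3), and no window of Cacnb4 was matched. The GC box was in the windows of 6 of these 9 genes, with 9 matches in Cacna1d and up to 7 in Cacna2d1, and was not in those of Cacna1c, Cacna1e and Cacng2. No member window held the cAMP response element. The read counts were made on another build (Rnor6), so the windows are sequence context and carry no measurement of binding.

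In the Intact cord the members differed in level per length, given here as CPM per kilobase of the gene length in the table. Cacna2d2 (24.3) and Cacng2 (24.0) came first and overlapped between libraries. Cacna2d3 (17.9) and Cacna1a (17.6) followed and also overlapped, then Cacnb4 (14.0). Cacna1b (10.1), Cacna1e (9.82) and Cacna2d1 (8.24) formed a run in which neighbours overlapped, and Cacna1d (4.99) and Cacna1c (3.72) were the lowest, each below the libraries of the gene before it. In sub-SCI the order was Cacna1a (6.30), Cacna2d2 (4.39) and Cacna1c (2.84), with Cacng2 (1.87) in the seventh place and Cacna1e (1.09) last. There, every neighbour in the order overlapped the next, so only distant places differed beyond the spread.

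**Figure D1:**
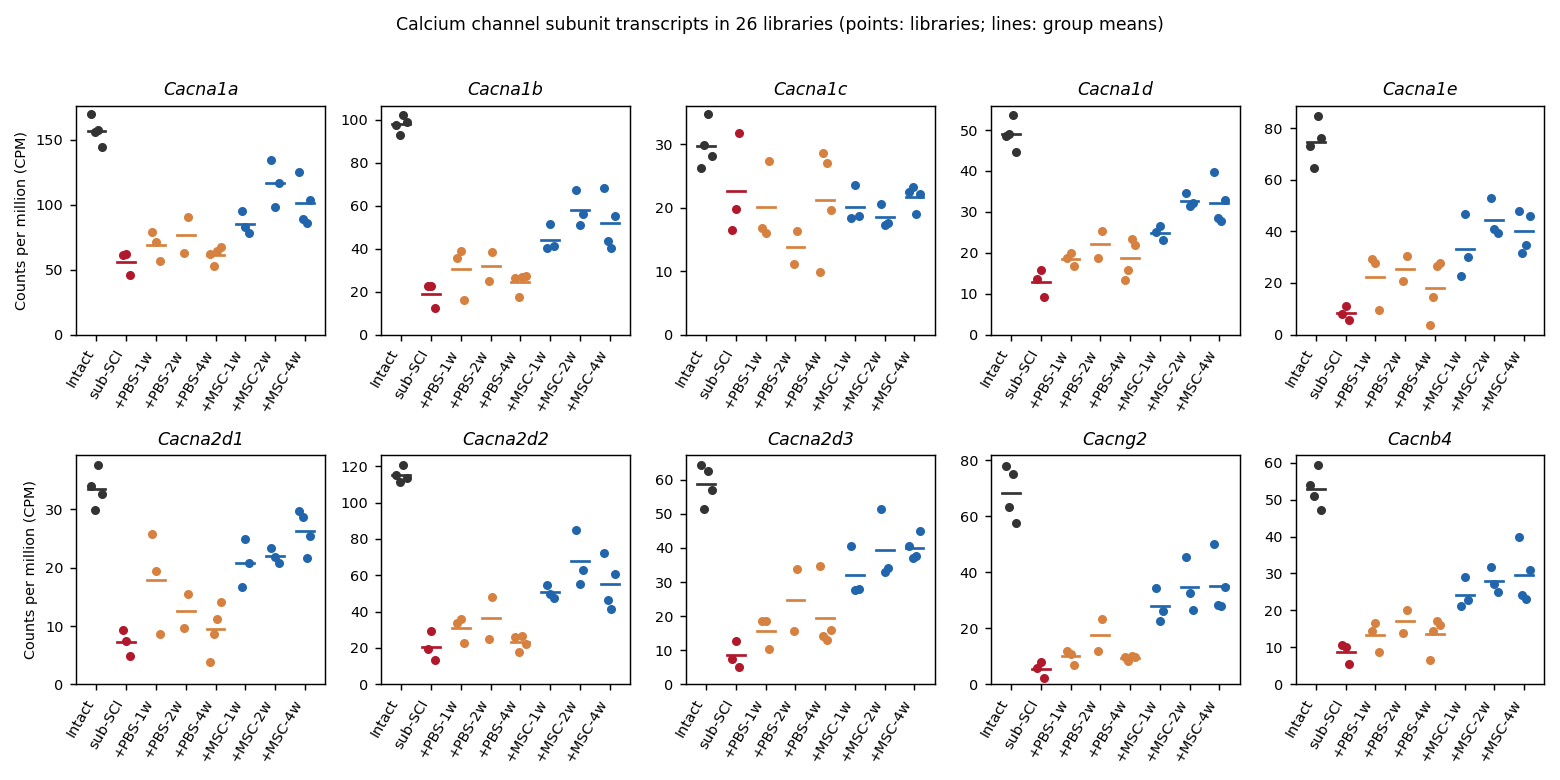
CPM (vertical axes, from 0) of each subunit gene in the 26 libraries, by group (horizontal axes); points are libraries and lines are group means. In 9 of the 10 panels all 3 sub-SCI libraries lie below all 4 Intact libraries, and in the panel of Cacna1c they overlap.

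Injury lowered the transcripts of 9 of the 10 subunits at the time of transplantation. The 9 were DEGs (absolute log2 fold change above 1 and adjusted p under 0.01 by edgeR, quasi-likelihood test, with the Benjamini-Hochberg method over all genes tested), against 17.5% of all genes tested called lower in sub-SCI than in Intact. The falls ran from 2.79-fold for Cacna1a to 12.8-fold for Cacng2, and the median log2 fold change of the 10 members was -2.41, against -0.02 over all genes tested. The same 9 genes were lower in every sub-SCI library than in every Intact library, a pattern that 34% of all genes tested showed. The neuron markers moved with them: 14 of 15 were DEGs lower in sub-SCI, with a median log2 fold change of -2.58, and their part in the fall of the subunits was not tested.

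Cacna1b codes for the pore of the N-type channel, which drives transmitter release at many spinal synapses and is the target of ziconotide. It was at 97.7, 92.7, 102 and 99.1 CPM in the 4 Intact libraries. It was at 22.6, 22.5 and 12.2 CPM in sub-SCI. The Intact libraries lay close together and all sub-SCI libraries were far below them, with replicate 3 lowest. The log2 fold change was -2.35 (SE 0.279, adjusted p = 2.95e-07 by edgeR), a 5.12-fold fall.

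Cacna1a, the P/Q-type pore that is the main release channel at many central synapses, fell least among the 9. It went from 144 to 170 CPM in Intact to 45.6 to 61.8 CPM in sub-SCI (log2 fold change -1.48, SE 0.165, adjusted p = 1.21e-07 by edgeR), leaving 35.8% of the Intact mean. Cacna1e, the R-type pore, fell most among the pore-forming genes. It was at 73.2, 64.6, 84.6 and 76.0 CPM in Intact. In sub-SCI it was at 8.02, 11.3 and 5.56 CPM, or 11.1% of the Intact mean, with no overlap (log2 fold change -3.17, SE 0.501, adjusted p = 1.23e-05 by edgeR).

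The L-type pores parted. Cacna1d, an L-type pore that opens at lower voltages and supports pacemaking and plateau potentials, went from 44.7 to 53.7 CPM in Intact to 9.26 to 15.7 CPM in sub-SCI (log2 fold change -1.93, SE 0.193, adjusted p = 2.83e-08 by edgeR). Cacna1c, the L-type pore that is also the main calcium channel of cardiac and smooth muscle, was at 26.3, 29.9, 34.8 and 28.1 CPM in Intact and at 16.4, 19.8 and 31.8 CPM in sub-SCI. Replicate 3 of sub-SCI lay inside the Intact range and the other 2 sub-SCI libraries below it. The log2 fold change of Cacna1c was -0.39 (95% interval -0.97 to 0.18, adjusted p = 0.225 by edgeR).

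Because of these unequal falls, the make-up of the 5 pore-forming transcripts among the members changed. Other pore-forming genes, such as Cacna1g, Cacna1h and Cacna1i (means of 90.1, 52.5 and 52.8 CPM in Intact), are not in these shares. Counted per length, Cacna1c made up 8.04% ± 0.806 (SD, n = 4) of the 5 pore-forming transcripts in Intact and 21.6% ± 9.96 (SD, n = 3) in sub-SCI, where its libraries ran from 15.0% to 33.0%. Cacna1e went the other way, from 21.2% ± 1.66 to 7.94% ± 1.97. Cacna1a held the largest share in both groups, 38.1% ± 2.27 and 46.4% ± 3.73. The ranges of Intact and sub-SCI did not overlap for any of these 3 shares.

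**Figure D2:**
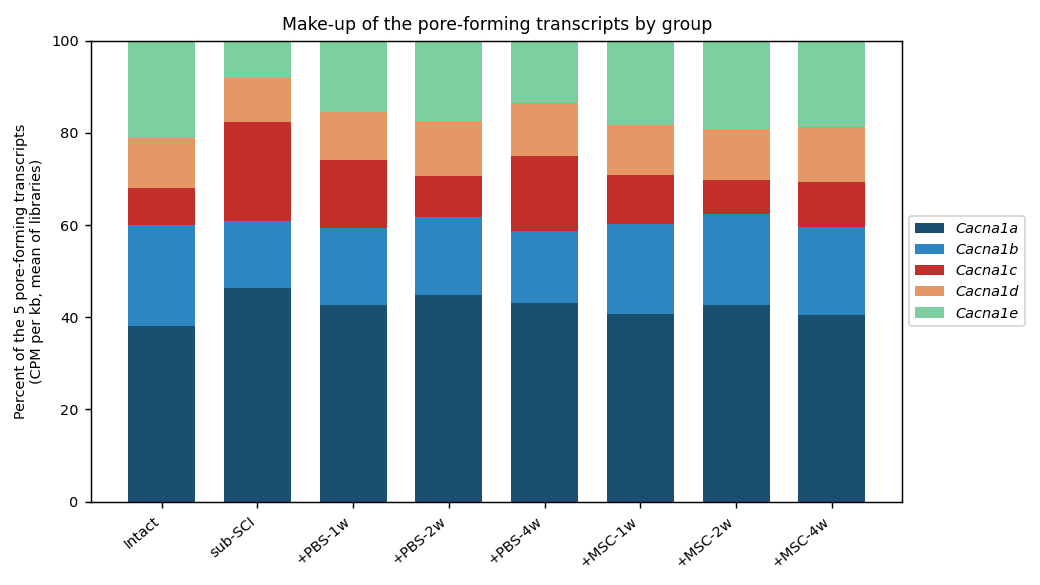
Percent of each pore-forming gene in the sum of the 5 (CPM per kb, mean over the libraries of a group, vertical axis) by group (horizontal axis). The Cacna1c share is 8.04% in Intact, 21.6% in sub-SCI, 16.1% in +PBS-4w and 9.88% in +MSC-4w.

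The 3 alpha2delta genes all fell in sub-SCI. Their products are extracellular subunits that raise channel density at terminals. Cacna2d2 was at 115, 111, 121 and 113 CPM in Intact. It was at 19.7, 29.6 and 13.2 CPM in sub-SCI, and every sub-SCI library was below every Intact library (log2 fold change -2.47, SE 0.271, adjusted p = 1.04e-07 by edgeR). Cacna2d3 went from 51.4 to 64.2 CPM to 5.22 to 12.8 CPM (log2 fold change -2.79, adjusted p = 1.14e-06). Cacna2d1, the alpha2delta subunit best known from sensory neurons and neuropathic pain, went from 29.8 to 37.6 CPM to 4.88 to 9.30 CPM (log2 fold change -2.21, adjusted p = 1.57e-05). Counted per length, Cacna2d2 made up 48.2% ± 1.71 (SD, n = 4) of the 3 transcripts in Intact and 49.8% ± 2.23 (SD, n = 3) in sub-SCI. The share of Cacna2d3 went from 35.5% ± 1.54 to 29.2% ± 3.23, with no overlap between the groups (33.7% to 37.5% against 26.2% to 32.6%). That of Cacna2d1 was 16.3% ± 0.626 and 21.1% ± 5.44, and its ranges overlapped.

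Cacng2 showed the largest fall of the members. It was at 77.9, 63.3, 75.0 and 57.7 CPM in Intact. It was at 5.84, 8.01 and 2.20 CPM in sub-SCI, or 7.82% of the Intact mean. All sub-SCI libraries were far below the Intact libraries (log2 fold change -3.68, SE 0.361, adjusted p = 2.15e-08 by edgeR). Cacnb4, the beta subunit, fell from 47.2 to 59.3 CPM to 5.39 to 10.6 CPM (log2 fold change -2.59, SE 0.308, adjusted p = 3.06e-07 by edgeR).

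The vehicle groups asked whether the subunits stayed low without hUC-MSCs. At 1 week, 8 of the 10 were called as DEGs below Intact, against 12.5% of all genes tested. The exceptions were Cacna2d1, with 25.8, 19.4 and 8.57 CPM (log2 fold change -0.90, adjusted p = 0.0286), and Cacna1c (-0.57, adjusted p = 0.0891). Without +PBS-1w replicate 1 the count was 9, with Cacna2d1 added (adjusted p = 0.00896), and without +PBS-1w replicate 3 it was 7, with Cacna1e lost (adjusted p = 0.0252). At 2 weeks, with 2 vehicle libraries, 7 of the 10 were called, against 5.66% of all genes tested, and Cacna1c, Cacna1e and Cacna2d3 were not (adjusted p = 0.0112, 0.0284 and 0.0171). The count was 9 without +PBS-4w replicate 1. The fit without +PBS-2w replicate 1 leaves 1 library in that group, so only its effect sizes are given. There the log2 fold changes of the 7 called members ran from -0.77 (Cacna1a) to -1.54 (Cacng2). With both libraries these genes were at -1.03 and -1.97. The neuron marker sum was 3551 CPM in +PBS-2w replicate 1 and 6696 CPM in replicate 2. The study reports that a vehicle sample of this week clustered with +MSC samples as an outlier. Cacna1c had a log2 fold change of -1.11 at 2 weeks (95% interval -1.79 to -0.43), against -1.03 for Cacna1a, which was called. All +PBS-2w libraries lay below all Intact libraries for Cacna1c. DESeq2 on all libraries called it (adjusted p = 0.00228), as did DESeq2 on the groups compared. So did edgeR on the groups compared (adjusted p = 0.00305) and edgeR with a term for replicate 1 (adjusted p = 0.00719). At 4 weeks 9 of the 10 were called, against 10.7% of all genes tested, with the same exception as in sub-SCI, Cacna1c (log2 fold change -0.49, 95% interval -1.01 to 0.04, adjusted p = 0.115). These comparisons share the Intact libraries.

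Cacng2 remained the lowest relative to Intact in each vehicle group. It was at 11.8, 11.0 and 7.01 CPM at 1 week, at 11.8 and 23.2 CPM at 2 weeks, and at 9.65, 8.29, 10.2 and 9.59 CPM at 4 weeks. The group means were 14.5%, 25.6% and 13.8% of the Intact mean. Each vehicle library was below the lowest Intact library, 57.7 CPM.

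Between sub-SCI and +PBS-4w no member was a DEG (background 4.28% higher and 3.09% lower). The median log2 fold change of the 10 was 0.46. The members closest to the threshold were Cacna2d3 (1.20, adjusted p = 0.0141), with all 4 +PBS-4w libraries above the sub-SCI libraries, and Cacna1d (0.53, adjusted p = 0.0383). At an unadjusted p under 0.05 by edgeR, 5 of the 10 members were higher in +PBS-4w (Cacna1d, Cacna1e, Cacna2d3, Cacng2 and Cacnb4), against 20.1% of all genes tested. DESeq2 on all libraries called 1 member higher.

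Within +PBS-4w the subunits did not vary together. Cacna1e was at 3.61, 14.4, 26.7 and 27.6 CPM, Cacna2d1 at 3.88, 8.71, 11.2 and 14.0 CPM, and Cacna2d3 at 34.8, 14.1, 13.0 and 16.1 CPM in replicates 1 to 4. Replicate 1 was the lowest library of its group for the first 2 genes and the highest for the third. The same library had the lowest Cacna1c (9.80 CPM) and Cacnb4 (6.71 CPM) of the group and the highest neuron marker level. Over the 8 groups, replicate 1 was the lowest library for Cacna1c in 5 and the highest for Cacna2d3, Cacng2 and Cacna1a in 5 each. These were the largest such counts. For the remaining genes, replicate 1 was the highest in 1 to 4 groups and the lowest in 1 to 3. Without +PBS-4w replicate 1 all 9 calls against Intact stood.

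The comparison of +MSC with +PBS at the same week asked whether hUC-MSCs moved the subunits back toward Intact. In group means 10 of 10 log2 fold changes were above 0 at each week, with medians of 0.56, 0.76 and 1.10 at 1, 2 and 4 weeks. The values of Cacna1c at 1 week (0.01) and 4 weeks (0.03) were close to 0. The 1-week value changed sign with the processing, and the 4-week value only when single libraries were left out. By edgeR's test no member was a DEG at 1 week (background 0% higher) or 2 weeks (0% higher). At an unadjusted p under 0.05, 5 of the 10 members were higher at 1 week, against 10.6% of all genes tested, and 6 at 2 weeks, against 5.49%. At 4 weeks Cacng2 and Cacna2d2 were DEGs higher with hUC-MSCs, 2 of 10 against 0.495% of all genes tested.

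In +MSC the Cacng2 level was 34.6, 22.8 and 26.1 CPM at 1 week, 45.4, 32.5 and 26.5 CPM at 2 weeks, and 49.9, 28.3, 27.8 and 34.7 CPM at 4 weeks. Each +MSC library was above each +PBS library of its week, and each was below the lowest Intact library. At 4 weeks the log2 fold change was 1.90 (SE 0.298, adjusted p = 0.00312 by edgeR), a 3.73-fold difference. The values were 1.48 at 1 week (adjusted p = 0.0671) and 0.99 at 2 weeks (adjusted p = 0.322), and at 1 week DESeq2 on all libraries called Cacng2 (adjusted p = 0.0051).

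Cacna2d2 was at 25.8, 17.9, 26.5 and 22.3 CPM in +PBS-4w and at 72.4, 46.3, 41.4 and 60.5 CPM in +MSC-4w. The groups did not overlap (log2 fold change 1.25, SE 0.235, adjusted p = 0.00669 by edgeR). The 4-week calls depended on single libraries: none was made without +PBS-4w replicate 2 or without +MSC-4w replicate 1, and 5 were made without +PBS-4w replicate 1, where Cacna1b, Cacna2d1 and Cacna2d3 were added. In those 2 fits with no member called, the calls over all genes tested also went from 89 to 3 in each, and the log2 fold changes were 1.84 and 1.68 for Cacng2 (adjusted p = 0.0211 and 0.0154) and 1.15 and 1.09 for Cacna2d2 (0.0358 and 0.0343). Cacna2d2, but not Cacng2, also missed the adjusted p threshold without Intact replicate 2, +PBS-4w replicate 3 or 4, +MSC-1w replicate 2, or +MSC-4w replicate 2 or 4 (adjusted p 0.0101 to 0.0217). None was made by edgeR on the groups compared, 5 by DESeq2 on all libraries and 4 by DESeq2 on the groups compared. Over all genes, those fits called 0 of 16495, 294 of 26370 and 234 of 24473 higher. The fit without +PBS-4w replicate 1 called 484 of 17964 higher, against 89 of 17990 in the main fit.

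Other members were close to the threshold at 4 weeks. Cacna2d1 had a log2 fold change of 1.48 (adjusted p = 0.0116), with 21.7 to 29.7 CPM in +MSC-4w against 3.88 to 14.0 CPM in +PBS-4w. Cacna1a (0.71, adjusted p = 0.0102), Cacna1d (0.79, adjusted p = 0.0124), Cacna1b (1.09, adjusted p = 0.0147) and Cacnb4 (1.12, adjusted p = 0.0202) also had no +MSC-4w library within the +PBS-4w range. Of the 10 members, 9 showed this separation, against 6.08% of all genes tested, and Cacna1c did not (log2 fold change 0.03, 95% interval -0.50 to 0.56). Neuron markers again moved with the subunits, with a median log2 fold change of 1.06 at 4 weeks, though none of the 15 was a DEG there. Their part was not tested.

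Averaged over the 3 weeks, the difference between +MSC and +PBS passed the adjusted p threshold of 0.01 for 8 of the 10 members, all higher, against 5.77% of all genes tested. Of these, 1 was also above a log2 fold change of 1, Cacng2 (1.46, SE 0.199, adjusted p = 0.000211 by edgeR), against 1.61% of all genes tested. The other 7 were between 0.54 for Cacna1a (SE 0.0983, adjusted p = 0.00109) and 0.96 for Cacna2d2 (SE 0.157, adjusted p = 0.000575). The N-type pore Cacna1b was higher by 0.83 (adjusted p = 0.00166), or 1.78-fold. Cacna1e (0.84, adjusted p = 0.0324) and Cacna1c (0.15, 95% interval -0.20 to 0.51, adjusted p = 0.558) did not pass. The number passing fell without +PBS-2w replicate 1, as did the calls over all genes tested. That fit leaves 1 library in +PBS-2w, so only its effect sizes are given. For 6 of the 8 members, Cacng2 and Cacna2d2 excepted, its log2 fold changes were between 0.44 and 0.80. Among the other fits, Cacna2d3 missed the threshold without replicate 3 of +PBS-1w or replicate 1 of +MSC-1w or +MSC-2w (adjusted p 0.0113 to 0.0115 by edgeR). Cacna2d1 missed it without any 1 of 11 libraries, with adjusted p from 0.0103 to 0.0163. These were Intact replicate 2, +PBS-1w replicate 3, +PBS-4w replicate 2, +MSC-1w replicates 2 and 3, each +MSC-2w library, and +MSC-4w replicates 1, 2 and 4. The count of DEGs was 2 without +PBS-4w replicate 1, when Cacna2d3 was added. Without +PBS-2w replicate 2, which also leaves 1 library in that group, the log2 fold changes of Cacna2d2 and Cacna2d3 were 1.14 and 1.13. The median over the members was 0.84, against -0.02 over all genes tested and 0.92 over the 15 neuron markers.

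**Figure D3:**
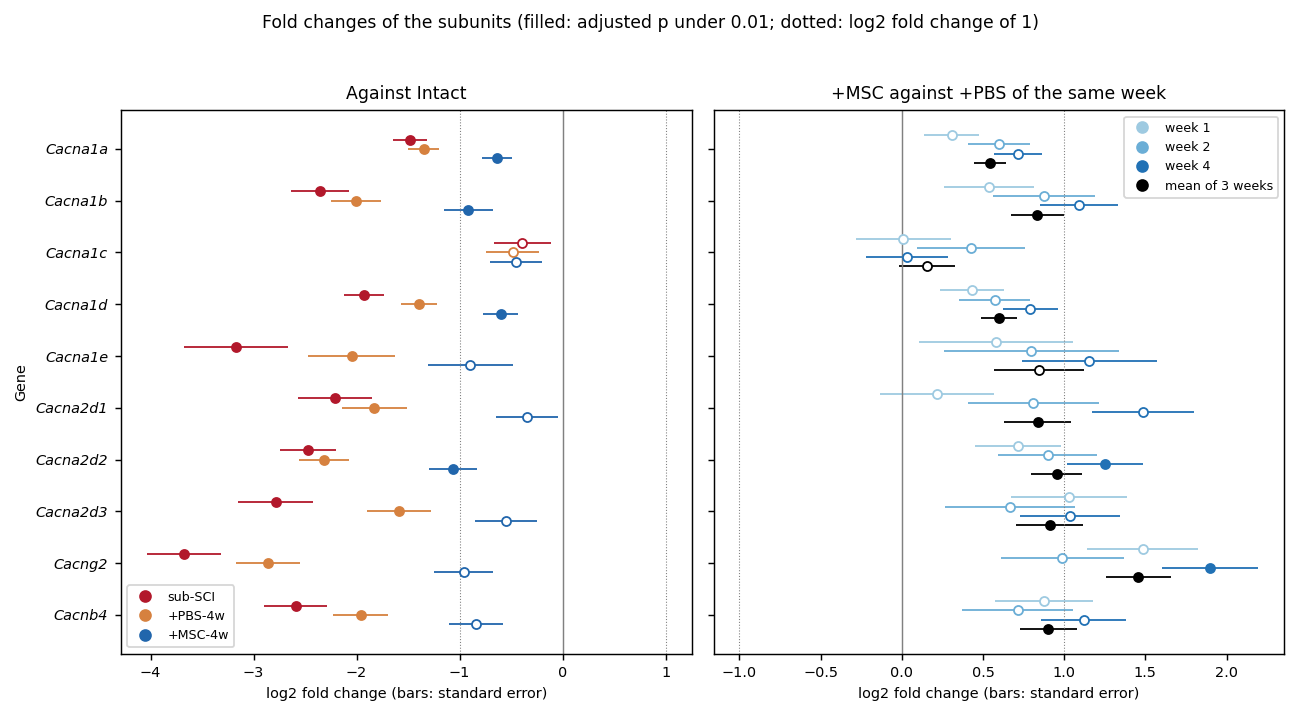
log2 fold change (horizontal axes, bars are standard errors) of each subunit gene against Intact (left) and of +MSC against +PBS (right); filled points have an adjusted p under 0.01 and dotted lines mark a log2 fold change of 1. The fall in sub-SCI runs from -0.39 (Cacna1c) to -3.68 (Cacng2), and the mean difference over 3 weeks from 0.15 (Cacna1c) to 1.46 (Cacng2).

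Whether the hUC-MSC difference itself changed between weeks was tested by interaction terms, and no member passed in any of the 3 pairs of weeks (all adjusted p at least 0.999; background 0% in both directions). The intervals were wide. For Cacna2d1, which had the largest change, the 4-week difference exceeded the 1-week difference by 1.27 (95% interval 0.29 to 2.24, unadjusted for the number of genes). For Cacng2 the corresponding value was 0.42 (95% interval -0.50 to 1.33).

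The +MSC groups were also set beside Intact. At 1 week Cacna1b, Cacna2d2, Cacng2 and Cacnb4 were DEGs lower in +MSC than in Intact, 4 of 10 against 2.63% of all genes tested, and 1 was called without +MSC-1w replicate 3. At 2 weeks none was a DEG (background 0.461% lower), and at an unadjusted p under 0.05, 7 of the 10 were lower, against 14.5% of all genes tested. At 4 weeks 1 was called, Cacna2d2 (log2 fold change -1.06, adjusted p = 0.00155), against 1.53% of all genes tested. That count was 4 without +MSC-4w replicate 1 and 0 without +MSC-4w replicate 2 or replicate 3. Every +MSC library was nevertheless below every Intact library for all 10 genes at each week, a pattern that 25.5%, 21.3% and 20.4% of all genes tested showed at 1, 2 and 4 weeks. The group means in +MSC-4w lay between 47.9% (Cacna2d2) and 78.7% (Cacna2d1) of the Intact mean, against 13.8% (Cacng2) to 71.4% (Cacna1c) in +PBS-4w.

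Across the 26 libraries, 9 members followed the neuron markers, given as the mean log2 CPM of 15 genes. Pearson's r, as a description over libraries that share groups, was 0.97 for Cacna2d3 and Cacng2, 0.94 to 0.95 for Cacna1b and Cacna2d2, 0.93 for Cacna1a, and 0.76 to 0.89 for Cacna1d, Cacna1e, Cacna2d1 and Cacnb4. For Cacna1c it was 0.04. When group means were removed, r was 0.91 for Cacna2d3, 0.83 for Cacng2, 0.79 for Cacna2d2, 0.75 for Cacna1a and 0.74 for Cacna1b. It was 0.34 for Cacna1d, 0.22 for Cacnb4, 0.16 for Cacna2d1 and -0.01 for Cacna1e. The same 9 genes had r of 0.67 to 0.88 with the mean log2 CPM of the oligodendrocyte markers. With the mean log2 CPM of the astrocyte markers r was 0.60 to 0.74. From Intact to sub-SCI the mean of the oligodendrocyte marker sum went from 55780 to 26230 CPM and that of the fibroblast marker sum from 748 to 12080 CPM. The part of these cell types in the levels of the members was not tested.

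Cacna1c deviated from its group means against the neuron markers (r = -0.69) and together with the markers of smooth muscle and pericytes (r = 0.86) and of endothelial cells (r = 0.70). With group means kept, r over the 26 libraries was 0.29 for smooth muscle and pericytes and 0.13 for endothelial cells. Fibroblast and Schwann cell markers also deviated with Cacna1c (r = 0.57 and 0.47), and oligodendrocyte and astrocyte markers against it (r = -0.62 and -0.42). Summed smooth muscle and pericyte markers were at 247 to 292 CPM in Intact and 392 to 609 CPM in sub-SCI. In sub-SCI, +PBS-1w and +PBS-4w, the libraries with high Cacna1c, replicate 3 (31.8 CPM), replicate 3 (27.3 CPM) and replicates 2 and 3 (28.6 and 27.0 CPM), were those with a low neuron marker level. In +PBS-2w and +MSC-2w it was otherwise: replicate 2 of +PBS-2w (16.4 against 11.1 CPM) and replicate 1 of +MSC-2w (20.5 against 17.3 and 17.5 CPM) had both the highest Cacna1c and the highest neuron marker mean of their group. The part of these cell types in the level of Cacna1c was not tested.

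**Figure D4:**
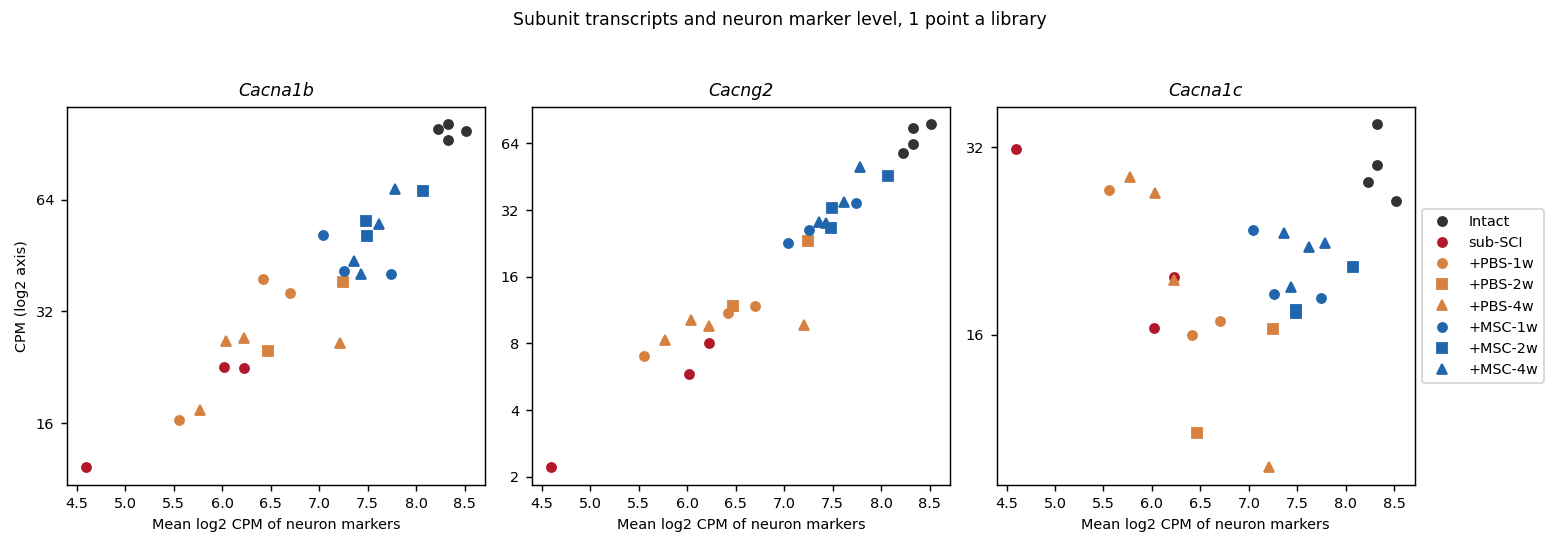
CPM of Cacna1b, Cacng2 and Cacna1c (vertical axes, log2 scale) against the mean log2 CPM of 15 neuron markers (horizontal axes), with 1 point a library and colours and shapes for groups. Pearson's r over the 26 libraries is 0.94, 0.97 and 0.04.

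Relative to the same neuron markers, Cacng2 and Cacna1a moved apart. The log2 level of Cacng2 minus the neuron marker mean was -2.38 to -2.09 in Intact and -3.46 to -3.21 in sub-SCI, a mean shift of -1.10, so Cacng2 was lower in sub-SCI than the markers alone. For Cacna1a it was -1.11 to -1.02 in Intact and -0.28 to 0.92 in sub-SCI, a shift of 1.24. The shifts of the other members in sub-SCI ran from -0.48 (Cacna1e) to 2.29 (Cacna1c). In +MSC-4w the shifts of Cacng2 and Cacna1a from Intact were -0.19 and 0.15, against -0.81 and 0.68 in +PBS-4w. The +PBS-4w libraries ran from -3.93 to -2.67 for Cacng2, below Intact, and from -1.25 to -0.03 for Cacna1a, overlapping Intact. These are descriptions, with no test.

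The genes whose log2 CPM was most like that of a member over the 26 libraries were found for each. For Cacng2 they were Syt2, Cadps and Atp2b3 (each r = 0.988). For Cacna1b they were Celsr3 (0.988), Ttbk1 (0.987) and Cacna1i (0.986), the last of which codes for a T-type pore. For Cacna1c they were Stk24 (0.883), St3gal2 (0.873) and Lrrk2 (0.857). The likeness of the best match was thus lower for Cacna1c than for these other members.

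The other calcium channel subunits in the table, 16 genes that all passed the filter, were lower in sub-SCI in 11 cases by the DEG rule, against the same background of 17.5%. Among them were the T-type pores Cacna1g (-1.74), Cacna1h (-1.30) and Cacna1i (-2.90), the beta genes Cacnb1 (-1.28) and Cacnb2 (-1.91) and the gamma genes Cacng3 (-2.65), Cacng5 (-2.96) and Cacng7 (-1.58), all as log2 fold changes. Cacna2d4, Cacng6 and Cacng8 were the remaining 3. Cacna2d4 and Cacng6 were at very low levels, with means of 0.82 and 0.63 CPM in Intact and 0.34 and 0.12 CPM in sub-SCI. Cacnb3, singled out after its value was seen, passed the test in the other direction, with 24.5 to 30.0 CPM in Intact and 38.3 to 44.8 CPM in sub-SCI (log2 fold change 0.64, adjusted p = 0.00387). Cacng4 was at 45.7 to 55.0 CPM and 36.1 to 60.6 CPM (log2 fold change -0.02, adjusted p = 0.905). Cacna1f, Cacna1s and Cacng1 also did not pass, with means under 2 CPM in both groups. Averaged over the 3 weeks, 6 of the 16 passed and were higher with hUC-MSCs, against 5.77% of all genes tested, and 3 of them, Cacna1i (1.01), Cacng3 (1.00) and Cacng5 (1.10), were DEGs, against 1.61%.

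Genes that work with the channels were counted in lists, to be read against the 17.5% of all genes tested that were DEGs lower in sub-SCI and the 1.61% that were DEGs higher with hUC-MSCs over the 3 weeks. Of 14 presynaptic partners, which tether release sites to the channels or form the fusion machinery, 12 were DEGs lower in sub-SCI, for example the active zone genes Rims1 (log2 fold change -3.74) and Bsn (-3.02) and the priming factor Unc13a (-1.82), and 5 were DEGs higher with hUC-MSCs over the 3 weeks, Rims1 (1.31) and Bsn (1.01) among them. All 4 AMPA receptor genes, the receptors that stargazin carries, were DEGs lower in sub-SCI, including Gria4 (-2.89), Gria2 (-2.34) and Gria1 (-2.24), and none was a DEG higher over the 3 weeks, though 2 passed the adjusted p threshold (background 5.77%). Of 8 calcium pumps and exchangers, which clear calcium from the cytosol, 5 were DEGs lower in sub-SCI. The 3 with the smallest adjusted p were Slc8a3 (-2.78), Atp2b3 (-4.06) and Atp2a2 (-1.15), and 3 of the 8 were DEGs higher over the 3 weeks.

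The other lists did not move as one. Of 11 channel regulators, 5 were DEGs lower in sub-SCI (background 17.5%), including Akap5 (-2.41), Camk2a (-2.66) and Camk2b (-2.86), and 1 was higher (background 16.6%), Gem (1.26, adjusted p = 8.2e-06), a small GTPase that inhibits the channels through the beta subunit and is named here after its value was seen. Of the 4 thrombospondin genes, secreted ligands of alpha2delta, Thbs2 (3.43, adjusted p = 2.07e-06) and Thbs4 (2.52, adjusted p = 0.00222) were DEGs higher in sub-SCI, against the same 16.6%. Thbs3 was at 0.75 (adjusted p = 0.0152). None of the 4 passed between +MSC and +PBS over the 3 weeks, where the median log2 fold change was -0.57.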

How the data were processed

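RNA sequencing counts of 26 rat spinal cord libraries in 8 groups were analysed, with groups and replicate numbers taken from the sample labels. The study's methods give 2 repeats for +MSC-2w where the labels give 3, and the labels were followed. Per the labels and the study's methods, poly(A) RNA reads were trimmed with Trim Galore 0.5.0, reads that HISAT2 2.1.0 mapped to the human genome (GRCh38) were removed, the rest were aligned to the rat genome (Rnor6), proper pairs were kept with SAMtools 1.9, and reads were counted per gene with featureCounts 1.6.4. The authors deposited unnormalized read counts for each gene, beside a gene length that was used only for levels per length. Rat reads of conserved exons can also map to the human genome, and how many were removed was not analysed here. The annotation release and strand setting are not given in the sources used here, so overlapping and antisense genes are uncertain. Each library's own counts equalled its values in the joint table, and no libraries were duplicated.

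The analysis used R 4.3.3 and edgeR 4.0.16. The 17990 genes kept by filterByExpr were scaled by TMM and fitted with the 8 groups as levels (glmQLFit, glmQLFTest), with Benjamini-Hochberg adjusted p-values over these genes. Passing meant an adjusted p under 0.01, and a DEG also an absolute log2 fold change above 1, the study's thresholds. All 26 libraries share 1 estimate of the spread, which +PBS-2w with 2 libraries needs. log2 CPM used a prior count of 2. Standard errors (SE) were derived as the absolute log2 fold change over the square root of the test's F statistic. The 95% intervals used these standard errors and the fitted degrees of freedom. The tests were tried on simulated counts. Alternatives were DESeq2 1.42.0 and edgeR on all libraries or the groups compared, median-of-ratios size factors, no filter, 10 counts in every library, other thresholds, a replicate block, a term for replicate 1 and leaving out each library. Total counts of 19496602 to 43468509 bear on precision.

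The genes, lists and tests were chosen with earlier results of these data known. Of 183 listed genes, 178 were in the table. All 10 subunits are named. Of the other subunits, up to 8 DEGs with the smallest adjusted p are named, of each partner list up to 3, and of each subunit the 3 genes with the most similar log2 CPM. Same-numbered libraries were not paired: the correlations of their deviations from group means ranged from -0.078 to 0.247 over 7 comparisons. Upstream windows came from RefSeq (GRCr8).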

Additional observations from a re-analysis of the deposited data

Results flagged for a closer look

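Single libraries lay far from the other libraries of their group for 2 of the genes. Of 30 sets of libraries examined (10 genes in the 3 groups of 4), chance alone would give about 1 in 20. In +PBS-4w, Cacna1b was at 17.4 CPM in replicate 2 against 26.3 to 27.2 CPM in the other 3 libraries, and the gap was 0.909 of the whole range. This was also the library of that group with the lowest neuron marker level. In the same group, Cacna2d3 was at 34.8 CPM in replicate 1 against 13.0 to 16.1 CPM in the others, a gap of 0.861 of the range. No cause was tested for either.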

How the results depend on the processing

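The 9 calls in sub-SCI and the 9 in +PBS-4w against Intact held in each fit that left out 1 library. Leaving out each library in turn, counts against Intact ranged from 7 to 9 in +PBS-1w and reached 9 in +PBS-2w. They ranged from 1 to 5 in +MSC-1w, from 0 to 4 in +MSC-4w and 0 to 0 in +MSC-2w against Intact. They ranged from 0 to 5 for +MSC-4w against +PBS-4w and from 1 to 2 for the mean of 3 weeks. For +PBS-4w against sub-SCI they ranged from 0 to 1. For +PBS-2w and the mean of 3 weeks, counts from fits that leave 1 library in +PBS-2w are not given. For +PBS-2w against Intact, where the main fit gave 7, the count was 10 by DESeq2 (all libraries, and the groups compared). It was 9 by edgeR on the groups compared, 8 with the term for replicate 1 and 5 with no filter. For +PBS-4w against Intact the count was 8 by edgeR on the groups compared, where Cacna1e was lost (adjusted p = 0.0105). For +MSC-1w against +PBS-1w the count was 1 by DESeq2 (all libraries, and the groups compared). Those fits called 28 of 26370 and 232 of 24041 genes higher. For +MSC-4w against +PBS-4w the count was 5 and 4 by DESeq2, 0 by edgeR on the groups compared and 7 at an adjusted p under 0.05 and any fold. Over all genes, DESeq2 called 294 of 26370 and 234 of 24473 higher there, and edgeR on the groups compared 0 of 16495. At any fold, the mean of 3 weeks gave 8 at 0.01 and 9 at 0.05, and against Intact +MSC-1w gave 7 at 0.05, +MSC-2w 5 at 0.05, and +MSC-4w 4 at 0.01 and 6 at 0.05. For +PBS-4w against sub-SCI it was 1 by DESeq2 on all libraries and 2 at 0.05. Cacna1c for +MSC-1w against +PBS-1w reversed to -0.0204 and -0.0058 (DESeq2), -0.0366, -0.0201, -0.001 and -0.0348 under other fits, and ranged from -0.13 to 0.30 with 1 library left out; Cacna1c at 4 weeks ranged from -0.23 to 0.21 and Cacna2d1 at 1 week from -0.12 to 0.57. The cause was not tested.

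Same-numbered libraries share only a number. With the replicate block the counts were 9, 8, 7 and 9 in sub-SCI, +PBS-1w, +PBS-2w and +PBS-4w against Intact, and 0, 0 and 2 at the 3 weeks of +MSC against +PBS; in +PBS-2w Cacna2d1 was lost (adjusted p = 0.0101, edgeR) and Cacna2d3 added (0.00795). The lowest count of a member in a library was 65 reads.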
